A study of Mus musculus with 25 samples.

Results

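The 92 ribosomal protein genes of the mouse testis libraries were followed across germ cell stages, mutant strains and sequencing platforms. A gene was a member when its symbol was Rpl or Rps followed by a number, with or without a trailing letter and number, or was Rplp0, Rplp1, Rplp2 or Rpsa. Symbols beginning with Rps6k, which are kinases, and pseudogenes marked -ps were left out. The members were 92 of 29244 gene symbols, and all 92 had a UMI in some library. They held 1468585 of 65063387 UMIs, or 2.26%, and 5 of them had fewer than 100 UMIs in all. Of the 92, 91 were found in the GENCODE vM21 annotation (GRCm38), on 19 chromosomes, 86 of them as protein-coding genes. The symbol rule also took in Rps19bp1, which encodes a protein that binds Rps19 and is not a subunit, and processed copies such as Rps3a3 and Rps4l that the annotation lists as pseudogenes.

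Ribosomal proteins are the protein part of the small (Rps) and large (Rpl) subunits and are made in near-equal amounts in most cells. Male germ cells are an exception for the genes on the X chromosome, which is transcriptionally silenced in pachytene spermatocytes. Several X-linked members have autosomal copies, thought to have arisen by reverse transcription, that are transcribed in the male germline. Most mammalian ribosomal protein genes begin transcription within a run of pyrimidines, the terminal oligopyrimidine (TOP) tract, through which their translation is regulated together.

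Testis cells were profiled by Drop-seq, a droplet method that counts each captured transcript 3′ end once by its unique molecular identifier (UMI). The 25 libraries comprised 11 of whole wild-type testis (WT, C57BL/6, aged 3 months 1 day to 9 months 14 days), 6 of Mlh3-/- testis (B6;129, 2 months 21 days to 8 months 30 days), 2 of Cul4a-/- testis (B6;129, 1 month 18 days and 1 month 21 days) and 2 of CNP eGFP BAC TRAP testis (C57BL/6, 2 months 14 days and 2 months 16 days). These are the ages in the labels, and the study's list of samples gives those of Cul4a and CNP the other way round, so the ages of both strains are uncertain. The other 4 were sorted cells, 1 library each. Sorted spermatogonia came from 5 pooled litter mates at postnatal day 7, labelled Pouf51-EGFP on C57BL/6, for which the study's methods name a Pou5f1-EGFP line on B6;CBA. Sorted primary spermatocytes, secondary spermatocytes and spermatids came from Hoechst-stained wild-type C57BL/6 testis at 2 months 21 days. Another strain of the series is not used here.

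Several features of the groups limit what they model. Mlh3 is a mismatch repair gene needed for meiotic crossovers, and its mutant libraries held 0 round and 0 elongating spermatid-like cells. Cul4a encodes a ubiquitin ligase scaffold. Both mutant strains are labelled B6;129 (the methods write the Mlh3 line as B6.129, the notation of a congenic line) and all wild-type and CNP mice C57BL/6, so strain background and mutation cannot be told apart. BAC TRAP lines carry a transgene that fuses EGFP to the ribosomal protein Rpl10a under the control of a chosen gene, so that ribosomes of chosen cells can be pulled down. WT1, WT2 and the sorted spermatogonia were dissociated with enzymes and all others mechanically. WT1, WT3, Mlh3_1, Mlh3_2 and the sorted spermatocytes and spermatids were sequenced on a MiSeq, and all others on a HiSeq. The WT libraries came from 11 animals. For the mutant libraries no source used here says that each came from its own animal, so the p-values measure the spread between these libraries, which may be technical in part.

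Library totals ran from 107117 to 9745302 UMIs. The floor, 3 UMIs as CPM (UMIs scaled to a common library total), lay between 0.308 and 28 CPM, and intervals and floors cover counting error only. At most 27 cell barcodes were shared by a pair of libraries. Mlh3 RNA was counted at 26.2 to 86.5 CPM in the Mlh3 libraries and 10.7 to 72.9 CPM in WT. Cul4a RNA was counted at 54.5 and 49 CPM in the Cul4a libraries and 5.6 to 45.7 CPM in WT. Neither count was lower in its mutant, and since a 3′ count need not fall when another part of the gene is deleted, it did not check the labels. Mitochondrial transcripts took 4.55% to 13.4% of UMIs in Mlh3 and 0.517% to 1.72% in WT. After cell filters 36618 cells remained, of which 1414 to 2447 stayed unnamed in each of the 8 HiSeq, mechanically dissociated WT libraries, and the classes below hold only named cells. The library labelled as primary spermatocytes held 24 pachytene-like cells, and 157 others fell in a cluster named for erythroid markers, of which this library had 0 UMIs, so that the name does not hold for them and the label was not checked by it. Of the sorted spermatids, 53 cells were round and 213 elongating spermatid-like. In the library labelled as secondary spermatocytes, 12 cells were meiotic division-like, 44 round and 72 elongating spermatid-like. Of the sorted spermatogonia, 212 cells were spermatogonia-like and 0 fell in another germ class.

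The pair Rpl39 and Rpl39l shows how close the X-linked genes and their copies are. The coding sequences below come from GENCODE vM21, with capitals at the 23 of 153 positions that differ (85% identical). Rpl39 lies at chrX:37082520-37085402 on the minus strand and Rpl39l at chr16:10170226-10174911 on the plus strand (GRCm38). These coordinates cover the whole genes, and the coding sequence is joined from the coding parts of the exons.
Rpl39: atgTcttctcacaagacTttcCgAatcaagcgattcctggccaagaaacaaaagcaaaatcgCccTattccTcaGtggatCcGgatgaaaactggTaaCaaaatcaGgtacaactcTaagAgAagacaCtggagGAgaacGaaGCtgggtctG
Rpl39l: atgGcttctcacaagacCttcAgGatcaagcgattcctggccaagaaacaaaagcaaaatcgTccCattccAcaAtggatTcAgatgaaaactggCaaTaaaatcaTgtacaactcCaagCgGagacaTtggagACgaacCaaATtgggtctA

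Other pairs were similarly alike in their coding sequence. Rpl10 (chrX:74270812-74273135, plus strand) and its single-exon copy Rpl10l (chr12:66283379-66284401, minus strand) differed at 98 of 642 positions (84.7% identical). Rpl36a and Rpl36al differed at 39 of 318 positions (87.7% identical). Reads from the 3′ end can still be shared: every 50-base stretch of the last 300 transcript bases of Rpl10 also occurred in another annotated gene, against none of Rpl10l. The same was true of every such stretch of Rpl36a, of 70.1% of those of Rpl36al, 62.2% of Rps4x, 21.1% of Rpl39 and 17.5% of Rps4l, and of none of Rpl39l. Counts of Rpl10, Rpl36a, Rpl36al and Rps4x may therefore be incomplete.

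Because TOP tracts are short pyrimidine runs at the start site, the letters CTTTC on the gene's own strand were searched from 10 bases before to 30 after the annotated start in RefSeq promoters (GRCm38.p6). They were present in 19 of 67 members with an entry (28.4%) and in 1538 of 27025 genes of the table (5.69%). The stretches from 45 before to 20 after the start are shown for members that the results below turn on, with the first CTTTC of the searched window in capitals. Rps27 holds another within the window, and Rpl39l another upstream of it, both in lower case. Rps27 and Rpl28 had 0 UMIs in CNP, Rplp2 is a stalk protein gene, and Rpl39l, Rpl39 and Rpl10l belong to the copy pairs. A match describes these letters only.
Rps27 (chr3:90213629-90213693, minus strand): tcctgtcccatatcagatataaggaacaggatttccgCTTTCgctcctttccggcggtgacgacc
Rpl28 (chr7:4792920-4792984, plus strand): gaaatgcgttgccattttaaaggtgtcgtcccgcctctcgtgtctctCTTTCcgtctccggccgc
Rplp2 (chr7:141447606-141447670, plus strand): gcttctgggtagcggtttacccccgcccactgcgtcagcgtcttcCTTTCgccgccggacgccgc
Rpl39l (chr16:10170183-10170247, plus strand): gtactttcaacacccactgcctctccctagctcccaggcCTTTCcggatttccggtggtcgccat
Rpl39 (chrX:37085203-37085267, minus strand): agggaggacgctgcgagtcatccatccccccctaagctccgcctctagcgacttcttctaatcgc
Rpl10l (chr12:66284382-66284446, minus strand): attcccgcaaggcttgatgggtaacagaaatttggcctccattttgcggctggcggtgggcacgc

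Across whole libraries, the members took the smallest share of UMIs in CNP and the largest in sorted spermatogonia. The share was 0.714% and 0.863% in CNP, and between 1.23% and 1.75% (1.55% ± 0.152, SD, n = 8) in the WT libraries with HiSeq sequencing and mechanical dissociation. It was 2.55% and 2.41% in Cul4a, and between 2.56% and 3.92% (3.05% ± 0.552, SD, n = 6) in Mlh3. The remaining WT libraries were WT1 at 2.2% (enzymatic, MiSeq), WT2 at 1.36% (enzymatic, HiSeq) and WT3 at 3.38% (mechanical, MiSeq). CNP lay below every WT library, and Cul4a above every WT library but WT3. Among sorted cells the share was 5.46% in spermatogonia (95% Wilson interval 5.42% to 5.5%), 4.61% in the library labelled as primary spermatocytes (few of whose cells could be named), 3.13% in that of secondary spermatocytes and 2.91% in spermatids. In whole libraries a higher share from more cells of a rich type cannot be told apart from more of these transcripts per cell.

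The members' share of UMIs was highest in spermatogonia-like cells and lower at each later stage up to the round spermatids. Median shares over libraries were 7.74% in spermatogonia-like cells (6.2% to 9.02%, n = 5 libraries), 3.46% in leptotene/zygotene-like cells (1.62% to 7.49%, n = 11) and 2.52% in pachytene-like cells (0.85% to 4.56%, n = 20). They were 1.69% in meiotic division-like cells (0.702% to 3.5%, n = 17), 1.26% in round spermatid-like cells (0.544% to 2.66%, n = 15) and 1.36% in elongating spermatid-like cells (0.522% to 2.92%, n = 15). The first classes rest on few cells, 69 spermatogonia-like and 206 leptotene/zygotene-like, and no WT library had the 10 spermatogonia-like cells needed to enter. Inside single libraries the share was lower in leptotene/zygotene than in spermatogonia-like cells in 5 of 5 libraries. It was lower in pachytene than leptotene/zygotene-like cells in 10 of 11, lower in meiotic division than pachytene-like cells in 15 of 16, and lower in round spermatid than meiotic division-like cells in 15 of 15. WT4 went against the step to pachytene-like cells and WT2 against the step to the divisions. From round to elongating spermatid-like cells the share was higher in 12 of 15 libraries, among them all 11 WT libraries, and lower in CNP_2, Cul4a_1 and Cul4a_2.

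**Figure D1:**
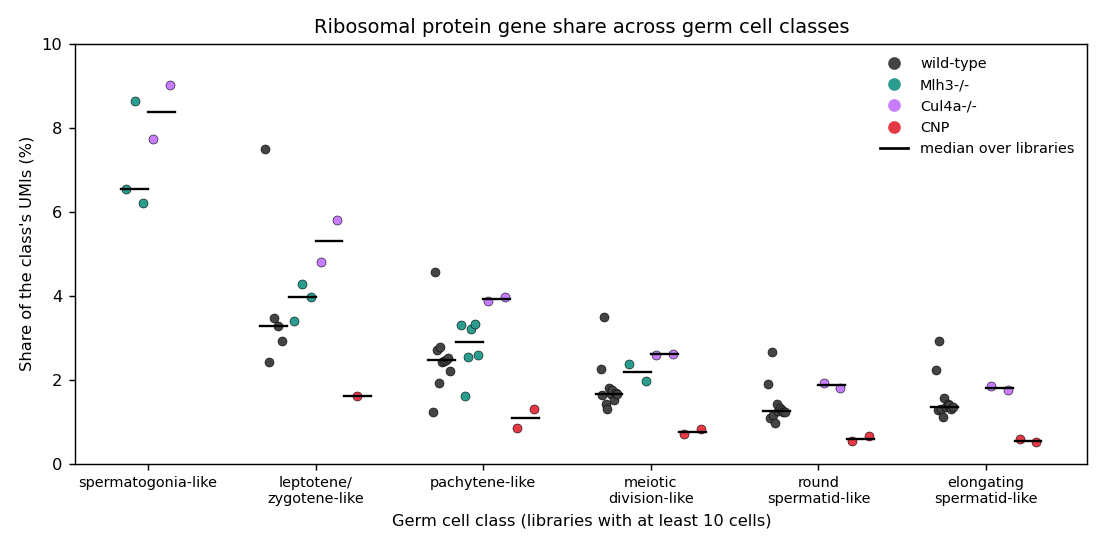
Share of UMIs from the ribosomal protein genes (percent, y axis) in the cells of each germ class, 1 point per library with at least 10 such cells, coloured by strain, with lines through strain medians. The median over libraries goes from 7.74% in spermatogonia-like to 1.26% in round spermatid-like cells, and the CNP medians are the lowest in pachytene-like, round and elongating spermatid-like cells.

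Most members were highest at the first of these stages. These medians come from different libraries at each stage (3 of Mlh3 and 2 of Cul4a for spermatogonia-like cells, none of Mlh3 for spermatids), so stage and strain are mixed in them. Of 85 members at 20 CPM or more in some class, 78 had their highest median level in spermatogonia-like cells, and the lowest was in round spermatid-like cells for 42 and elongating spermatid-like cells for 34. Rpl10l, Rpl39l and Rpl22l1, copies of other members, were highest in meiotic division-like cells instead. Rpl31, Rpl39, Rps27l and Rps9 were highest in leptotene/zygotene-like cells. The stage of the highest level was not counted over all genes, so these counts do not show that the pattern is particular to the members. The stalk proteins Rplp0, Rplp1 and Rplp2 recruit translation factors to the large subunit. From spermatogonia to round spermatid-like cells, the median level of Rplp0 went from 1702 to 588 CPM, that of Rplp1 from 2080 to 246 CPM and that of Rplp2 from 2139 to 197 CPM, and the difference between the 3 genes was not tested.

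Neighbouring stages were compared within libraries by edgeR's quasi-likelihood test and Benjamini-Hochberg adjustment over 21538 genes. From spermatogonia to leptotene/zygotene-like cells, 24 of 91 members tested fell and 4 rose (30.8%, where 7.04% of all genes were called, 4.97% higher and 2.07% lower), with a median log2 difference of -0.47 against 0.04 over all genes. Rps3, an entry-channel protein, fell by 1.83 ± 0.22 on the log2 scale (SE), and Rplp2 fell by 1.53 ± 0.21. The rises, in Rpl10l, Rps27l, Rpl39 and Rps27, were called under TMM scaling alone. Scaling by relative log expression (RLE), library totals and DESeq2 gave 64, 50 and 59 members lower and 0 higher. The 5 libraries with a spermatogonia-like class were 3 of Mlh3 and 2 of Cul4a, and without Cul4a_2 the count was 47.

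The step to pachytene-like cells depended on the scaling. With TMM, 43 of 91 members rose and 6 fell (53.8%, where 27% of all genes were called, 19.1% higher and 7.95% lower), and the median was 0.46 against 0.61 over all genes. With RLE the counts were 2 higher and 53 lower (median -0.68, all genes 0.09), and with library totals 3 higher and 42 lower (median -0.46, all genes 0.16). DESeq2 called 2 higher and 59 lower (median -0.84, all genes -2.61). Members above the all-gene median numbered 38 with TMM, 7 with RLE, 9 with library totals and 81 with DESeq2. Relative to all genes, the direction thus also depended on the scaling. Only 8 calls kept their direction under all 4: Rpl10l and Rpl39l rose, and Rpl10, Rpl36a, Rpl39, Rpl3, Rps19 and Rps27l fell.

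Of these 8 genes, 5 belong to pairs of an X-linked gene and its autosomal copy. In pachytene-like cells Rpl39 was at 0 UMIs in 7 of 10 WT libraries, and the highest of these 10 was 9.56 CPM. Rpl39l was between 600 and 988 CPM in the same libraries. In leptotene/zygotene-like cells Rpl39 had been at 160, 0, 48, 202 and 136 CPM in WT3, WT4, WT8, WT10 and WT11. These leptotene/zygotene-like cells numbered 74 over the 5 libraries, with 75455 UMIs in all and 626 to 1398 UMIs per cell. Each of these Rpl39 values therefore rests on few UMIs. From that class to pachytene-like cells, Rpl39 fell by 4.51 ± 0.42 on the log2 scale (edgeR's quasi-likelihood test, adjusted p = 4.53e-25) and Rpl36a by 4.48 ± 0.41 (adjusted p = 2.14e-25). Rpl10, a late-joining protein of the large subunit, fell by 3.19 ± 0.53 (adjusted p = 2.89e-08). Rpl10l rose by 2.12 ± 0.22 (adjusted p = 1.66e-20) and Rpl39l by 1.72 ± 0.18 (adjusted p = 1.67e-20).

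As a share of both genes' UMIs, the copy made up 38.5% for Rpl10l in spermatogonia-like cells (15 of 39 UMIs, 95% Wilson interval 24.9% to 54.1%), 79.2% in leptotene/zygotene-like cells and 99% in pachytene-like cells (6921 UMIs against 71 of Rpl10). It stayed at 99.7%, 99% and 93.9% in meiotic division-like, round and elongating spermatid-like cells. For Rpl36al the share was 39.2% in spermatogonia-like and 98.1% in pachytene-like cells, where both genes of the pair share 3′ sequence with other genes. Rpl39l and Rps4l already made up 86.7% and 90.4% in spermatogonia-like cells, and 99.6% and 98.7% in pachytene-like cells. Leydig-like cells, the hormone-producing cells between the tubules, had lower copy shares than pachytene-like cells, with 28.5% for Rpl10l, 49.5% for Rpl39l, 29.5% for Rps4l and 52.2% for Rpl36al. Free RNA from lysed cells sets a limit on these shares. Elongating spermatid markers summed to a median of 306 CPM in spermatogonia-like, 12933 CPM in leptotene/zygotene-like, 4189 CPM in pachytene-like and 529 CPM in Leydig-like cells, against 149872 CPM in elongating spermatid-like cells. Pachytene markers summed to a median of 2844, 6073 and 2897 CPM in spermatogonia-like, leptotene/zygotene-like and Leydig-like cells, against 19241 CPM in pachytene-like cells. Sertoli markers summed to a median of 1623 CPM in leptotene/zygotene-like and 210 CPM in pachytene-like cells. The part of such RNA in the copy shares and in the falls of the X-linked genes was not tested.

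**Figure D2:**
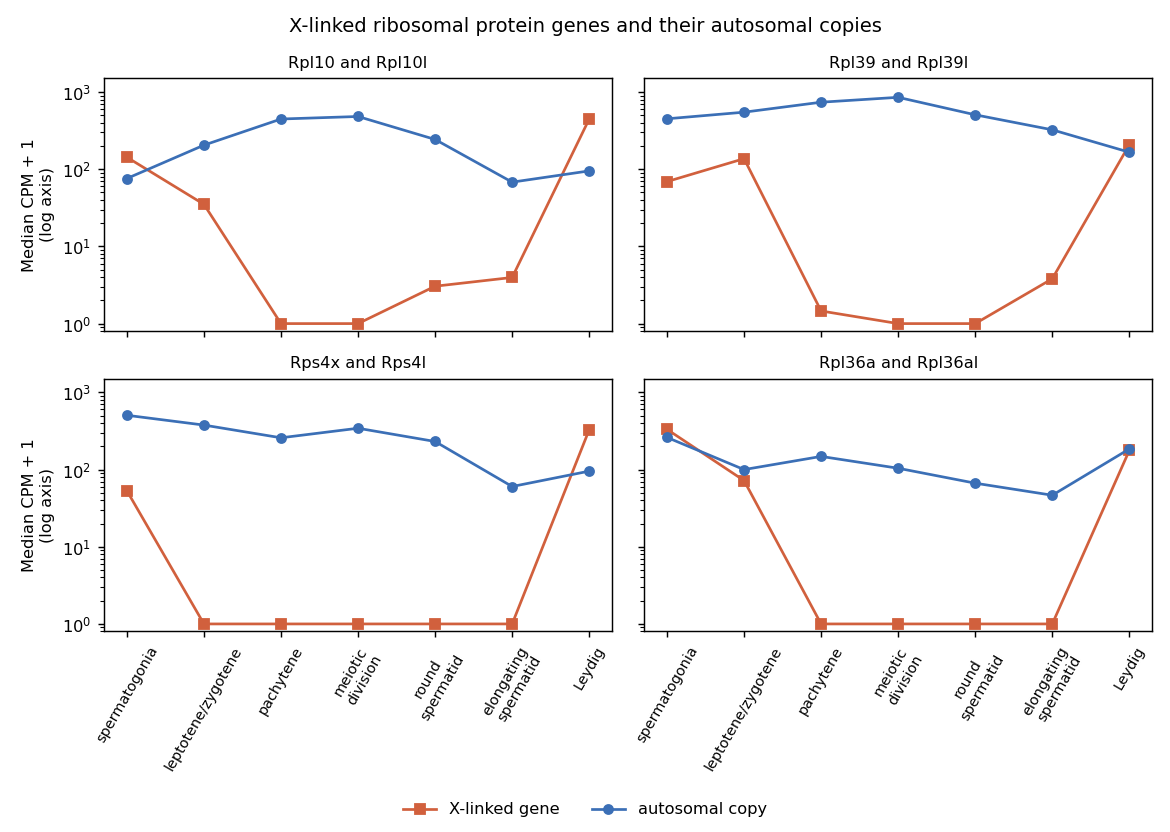
Median level over libraries (CPM + 1, log axis) of 4 X-linked ribosomal protein genes and their autosomal copies in 6 germ classes in order and in Leydig-like cells. In pachytene-like cells the X-linked genes lie near 0 (Rpl10 at 0 CPM and Rpl39 at 0.457 CPM) and the copies between 147 and 737 CPM, whereas Rpl10 reaches 446 CPM in Leydig-like cells.

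Copy shares of autosomal pairs also differed between stages, and the difference between the pairs was not tested. Rpl22l1, a copy of the RNA-binding protein gene Rpl22, made up 13.5% of the pair's UMIs in spermatogonia-like cells, 46.5% in pachytene-like cells and 76.3% in meiotic division-like cells, and 35.1% in elongating spermatid-like cells. Rps27l made up 54.8% of the UMIs of Rps27 and Rps27l in spermatogonia-like cells and 19% in elongating spermatid-like cells. Its coding sequence differed from that of Rps27 at 60 of 252 positions (76.2% identical).

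In the meiotic divisions, 46 of 91 members fell and 5 rose relative to pachytene-like cells (56%, where 44% of all genes were called, 27.1% higher and 16.9% lower; median -0.31 against 0.17 over all genes). Of the falls, 43 held under all 4 scalings. Rpl14, a large-subunit protein, was at a median of 305 CPM in pachytene-like cells (54.9 to 585 CPM) and 49.6 CPM in meiotic division-like cells (20.9 to 334 CPM), and fell by 2.17 ± 0.13 on the log2 scale (edgeR's quasi-likelihood test, adjusted p = 2.47e-64). Rpl10a, which lies at the exit site for tRNA, fell by 2.91 ± 0.23 (adjusted p = 1.49e-35) and Rps27a, made as a fusion with ubiquitin, by 1.24 ± 0.11 (adjusted p = 5.16e-26). The 5 that rose with TMM were Rps4l, Rpl39l, Rpl22l1, Rpl10l and Rpl35, by 0.36 to 0.50, and none of them rose under all 4 scalings.

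From meiotic division to round spermatid-like cells, 13 of 91 members rose and 13 fell (28.6%, where 48.2% of all genes were called, 26.8% higher and 21.4% lower). The split turned with the scaling: RLE gave 46 higher and 9 lower, DESeq2 47 and 9, and library totals 1 and 62. Under all 4 scalings, 9 falls and 1 rise held. Rps27a fell by 2.13 ± 0.15 (edgeR's quasi-likelihood test, adjusted p = 1.04e-42), Rps3 by 1.68 ± 0.14 (adjusted p = 1.09e-30) and Rpl4, which lines the exit tunnel, by 1.26 ± 0.11 (adjusted p = 1.51e-27). The median level of Rpl4 was 389 CPM before and 112 CPM after this step, and that of Rps3 was 135 and 33.3 CPM. Rpl35, also of the large subunit, was the rise (0.77 ± 0.13, adjusted p = 6.58e-09). The other falls were Rpl10l, Rpl14, Rpl15, Rpl7l1, Rpl9 and Rps19bp1.

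From round to elongating spermatid-like cells, 50 of 91 members rose and 11 fell (67%, where 37.3% of all genes were called, 15.5% higher and 21.8% lower; median 0.48 against -0.06 over all genes). Under all 4 scalings 28 rises and 4 falls held. The split was 75 higher and 4 lower with RLE, 73 and 4 with DESeq2 and 28 and 24 with library totals, where the median of all genes was 0.42, 0.91 and -0.43. Rpl41, a very short protein that bridges the subunits, was at a median of 248 CPM in round and 622 CPM in elongating spermatid-like cells and rose by 1.59 ± 0.11 (edgeR's quasi-likelihood test, adjusted p = 3.06e-45). Rps20 went from 552 to 1177 CPM and rose by 1.47 ± 0.10 (adjusted p = 7.11e-44). The 4 falls were all copies: Rps4l by 1.54 ± 0.13 (adjusted p = 6.41e-30), Rpl10l by 1.42 ± 0.13 (adjusted p = 6.05e-26), Rpl22l1 by 0.99 ± 0.14 (adjusted p = 2.57e-11) and Rps27l by 0.97 ± 0.15 (adjusted p = 1.53e-09). Of these copies, Rpl10l went from a median of 481 CPM in meiotic division-like cells to 242 CPM in round and 67 CPM in elongating spermatid-like cells.

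Many members were low in the CNP libraries, while others were at the WT level. Of 79 members at 20 CPM or more in the 8 WT libraries of the same platform and dissociation, 29 were under 10% of the WT median, 21 between 10% and 50%, and 29 at 50% or more. The nearest values to the lower limit were Rpl6 at 8.33% and Rpl7 at 11.4%. Among all 5979 genes at that level, 38 (0.636%) were under 10% and the median was 106%. These 38 were the 29 members and Fau, Gm1821, Hax1, Hnrnpa3, Impdh2, Kpna2, Ptp4a1, Tpt1 and Ube2n, of which Fau encodes a ribosomal protein fused to a ubiquitin-like protein and Tpt1 is a known TOP gene. The other 13 members were below 20 CPM in those WT libraries and were not used here.

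Rps27 of the small subunit had 0 UMIs in both CNP libraries, where the floors were 3.87 and 2.84 CPM, against 65.4 to 229 CPM in the 8 WT libraries. Rpl28 of the large subunit likewise had 0 UMIs, against 57 to 99.3 CPM. Rps12 was at 0 and 3.79 CPM against 165 to 312 CPM. Rps13, one of the proteins joining the subunits, was at 2.58 and 6.64 CPM against 202 to 338 CPM. Rpl11, which can also bind Mdm2, was at 10.3 and 2.84 CPM against 287 to 388 CPM. All of these are among the members under 10% of the median of the same 8 WT libraries. That CNP did not overlap with those libraries in them therefore follows from the choice and is no separate result.

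Among the members that were not low, Rps14 was at 507 and 770 CPM (WT 519 to 866 CPM) and Rpl8 at 463 and 586 CPM (WT 446 to 570 CPM). Rpl39l was at 480 and 683 CPM (WT 351 to 629 CPM). Rps4l was at 331 and 339 CPM, above all 8 WT libraries (190 to 266 CPM). The first 3 overlapped with WT in at least 1 library. Rps14 belongs to the small and Rpl8 to the large subunit, and Rpl39l and Rps4l are copies. Rpl10a, the member that BAC TRAP lines carry as a tagged fusion, was at 1.29 and 0 CPM against 5.8 to 11.9 CPM in WT.

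Members low in CNP were also low in 2 other HiSeq libraries, both dissociated with enzymes. The 29 members under 10% in CNP had a median of 14.1% of the WT level in WT2, where 23 of them were under 50%, and 43.6% in sorted spermatogonia, where 17 were under 50%. The 29 members at 50% or more in CNP had medians of 113% and 483% there, with 1 under 50% in each. Over all 5979 genes, 91.8% were at 50% or more in WT2, and the median was 89.7%. Such a share was not counted for sorted spermatogonia, which are 1 cell type at postnatal day 7 set against whole adult testis. In WT2, Rps27 was at 0 CPM and Rpl11 at 12.5 CPM. In sorted spermatogonia, Rps27 was at 5.13 CPM, Rps12 at 18.8 CPM and Rpl11 at 59.9 CPM, next to Rplp2 at 2681 CPM and Rps14 at 3048 CPM. In WT1, WT3, both Cul4a libraries, Mlh3_1 and Mlh3_2, the median of the 29 low members was at least 144% of the WT level. What sets CNP, WT2 and sorted spermatogonia apart was not tested.

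Shared sequence at the transcript 3′ end moved with this split in part. In the last 300 bases, 44 of the 79 members had at least 50% of their 50-base stretches in another annotated gene, and their median CNP level was 21.9% of WT. It was 62.4% in the 15 members with some stretches shared and 61.9% in the 20 with none. Across the 79 genes, which share libraries and are no independent replicates, Spearman's rho between the shared percentage and the CNP level was -0.453, and it was -0.243 for WT2, 0.145 for Cul4a and 0.105 for WT1. In WT2 the medians were 55.9%, 102% and 73.3% in the same 3 groups. Rps27, at 0 UMIs in CNP, shared every such stretch. Rpl28, Rpl12, Rpl11, Rpl5 and Rpl6 shared no such stretch and were still under 10% in CNP. The part of shared sequence in the low counts was not tested.

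**Figure D3:**
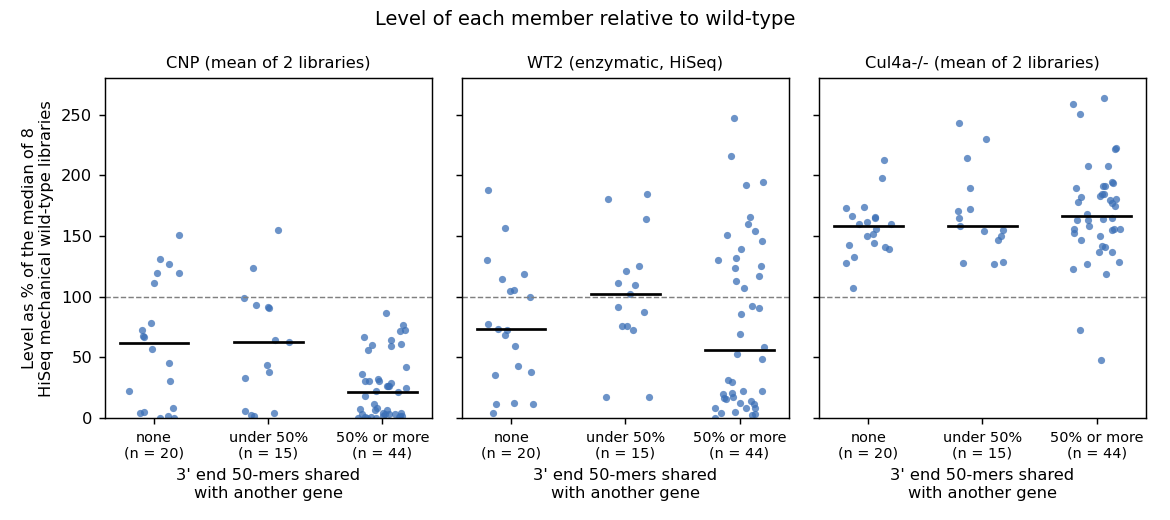
Level of 79 ribosomal protein genes in CNP, WT2 and Cul4a (percent of the median of the 8 HiSeq, mechanically dissociated WT libraries, y axis), grouped by the share of 50-base stretches of the last 300 transcript bases found in another gene (none, under 50%, 50% or more). In CNP the medians are 61.9%, 62.4% and 21.9%, and members near 0 occur in the first group as well as in the last.

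The low counts in CNP were also found in the 3 germ classes compared with WT. Meiotic division-like cells were not compared between strains. The share of UMIs was 0.85% and 1.3% in CNP pachytene-like cells, which overlaps WT (1.24% to 4.56%). It was 0.544% and 0.65% in round spermatid-like cells (WT 0.972% to 2.66%) and 0.575% and 0.522% in elongating spermatid-like cells (WT 1.12% to 2.92%), with no overlap. By edgeR's quasi-likelihood test at an adjusted p of 0.05, 48 of 89 members fell and 0 rose in pachytene-like cells (53.9%, where 0.498% of all genes were called, 0.018% higher and 0.48% lower). In round spermatid-like cells 52 of 88 fell and 0 rose (59.1%, where 0.921% were called, 0.0359% higher and 0.885% lower), and in elongating spermatid-like cells 44 of 89 fell and 0 rose (49.4%, where 0.615% were called, 0.0205% higher and 0.595% lower). Medians of fitted values were -2.05, -2.09 and -2.41 over the members and -0.29, -0.43 and -0.78 over all genes. With members at 0 UMIs set to the bound of 3 counts over the strain, the member medians were -2.03, -1.81 and -1.65. No such bound was set for all genes. A total of 35 of 88 members tested in all 3 classes fell in each (39.8%, where 0.347% of all genes did and 0.0154% rose). Of 89 tested in some class, 57 fell in at least 1 (64%, where 0.959% of all genes were called) and 32 in none, and 3 members were not tested. Under all 4 scalings 44, 29 and 14 of the falls in the 3 classes held. With replicate numbers, which do not pair the libraries, as a block the counts were 1, 37 and 14, and in elongating spermatid-like cells no filter on low counts gave 6 and clustering with the ribosomal protein genes kept gave 5. Without CNP_1 the counts were 29, 28 and 18, and without CNP_2 they were 27, 33 and 9. With 1 CNP library left, the spread came from the other groups alone. The 3 comparisons use the same 2 CNP libraries, which held 38 and 146 pachytene-like, 83 and 126 round and 88 and 102 elongating spermatid-like cells. The CNP pachytene-like cells held 2455 and 1110 UMIs per cell in CNP_1 and CNP_2, against 2290 to 5464 in WT. The classes came from different clusters in part, as 59.3% of CNP round spermatid-like cells were in a cluster that held 32.3% of the WT ones, and the largest clusters of elongating spermatid-like cells differed (34.7% of CNP and 26.1% of WT cells).

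In round spermatid-like cells Rps7, a small-subunit protein, was at 13.6 and 8.32 CPM in CNP and between 247 and 564 CPM in the 11 WT libraries, and fell by 4.92 ± 0.46 on the log2 scale (edgeR's quasi-likelihood test, adjusted p = 4.93e-23). Rps13 was at 6.81 and 16.6 CPM in CNP and fell by 4.53 ± 0.48 (adjusted p = 1.08e-17). Rpl11 was at 13.6 and 0 CPM and fell by 4.94 ± 0.53 (adjusted p = 4.54e-17). Rps13 ran from 53.6 to 634 CPM in WT, so CNP did not overlap with WT in Rps7 or Rps13. Both were among the members with the smallest adjusted p in this comparison. Rpl11 was at 10.7 CPM in WT2, level with CNP, and between 182 and 476 CPM in the other 10 WT libraries. In pachytene-like cells Rpl11 was at 21.4 and 6.17 CPM, against 424 to 808 CPM in 9 WT libraries and 0 in WT2. Rps12 had 0 UMIs there in both CNP libraries. In elongating spermatid-like cells Rps12 and Rps13 had 0 UMIs, Rpl11 fell by 4.67 ± 0.62 (adjusted p = 1.02e-10) and Rps7 by 3.76 ± 0.53 (adjusted p = 2.27e-09).

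Other lists of the translation machinery were counted in the same way. The list called translation factor genes also held Btf3, Gnb2l1, Naca and Tpt1, so its counts are not of translation factors alone. Of 39 translation factor genes tested, 6, 8 and 6 fell in pachytene-like, round and elongating spermatid-like cells and 0 rose. Of the ribosome biogenesis genes 0, 1 and 0 fell, and of the 75 mitochondrial ribosomal protein genes tested in pachytene-like cells 0 did. Over all genes, 0.48%, 0.885% and 0.595% fell in pachytene-like, round and elongating spermatid-like cells. The mitochondrial share of all UMIs was 1.13% and 1.58% in CNP, inside the WT range.

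In Cul4a more members rose than fell relative to WT, in pachytene-like and in round and elongating spermatid-like cells. By edgeR's quasi-likelihood test at an adjusted p of 0.05, 37 of 89 rose and 1 fell in pachytene-like cells (42.7%, where 12.5% of all genes were called, 7.48% higher and 4.98% lower). In round spermatid-like cells 56 of 88 rose and 2 fell (65.9%, where 10.6% were called, 7.61% higher and 2.99% lower), and in elongating spermatid-like cells 44 of 89 rose and 2 fell (51.7%, where 8.86% were called, 6.91% higher and 1.95% lower). Medians were 0.65, 0.63 and 0.66 over the members and 0.24, 0.19 and 0.19 over all genes. With 1 Cul4a library the counts were lower: 8, 30 and 15 without Cul4a_1, and 4, 37 and 18 without Cul4a_2. With 1 Cul4a library left, the spread came from the other groups alone. Under all 4 scalings 28, 29 and 10 rises and 1, 1 and 2 falls held, and library totals alone gave 16 calls in elongating spermatid-like cells. The replicate block gave 21, 6 and 0 calls by edgeR, with 3 members at an unadjusted p under 0.05 in the last class, and HiSeq, mechanically dissociated libraries only gave 75 in pachytene-like cells. The share of UMIs in pachytene-like cells was 3.87% and 3.98% in Cul4a, against 1.24% to 4.56% (median 2.46%) in 10 WT libraries. For round spermatid-like cells it was 1.93% and 1.81%, against 0.972% to 2.66% (median 1.26%). In both classes the 2 Cul4a libraries lay inside the WT range and above its median. The classes came from different clusters in part, as 72.9% of Cul4a round spermatid-like cells were in 1 cluster and 33.7% of WT ones in another.

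Rpl36, a short protein of the large subunit, was at 326 and 280 CPM in Cul4a round spermatid-like cells and rose by 1.54 ± 0.16 (edgeR's quasi-likelihood test, adjusted p = 4.35e-20). The WT libraries ran from 21.4 to 561 CPM, with only the MiSeq libraries WT1 and WT3 above Cul4a. Rpl41 was at 562 and 482 CPM and rose by 1.27 ± 0.15 (adjusted p = 1.68e-15), and here too only WT1 and WT3, at 712 and 1060 CPM, were higher. Rps29 rose by 1.23 ± 0.15 (adjusted p = 6.98e-13) and Rps27 by 1.22 ± 0.16 (adjusted p = 1.37e-12). In pachytene-like cells Rpl10a rose by 1.52 ± 0.27 (adjusted p = 4.27e-05), Rps15 by 1.19 ± 0.22 (adjusted p = 0.00011) and Rpl22 by 1.05 ± 0.22 (adjusted p = 0.000468).

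The members that fell in Cul4a were Rpl34 and Rps13. Among round spermatid-like cells, Rpl34 was at 65.7 and 86.3 CPM and fell by 1.02 ± 0.18 (edgeR's quasi-likelihood test, adjusted p = 1.76e-06), and Rps13 was at 147 and 157 CPM and fell by 0.60 ± 0.17 (adjusted p = 0.00636). The pseudogene Rps13-ps1, singled out after its values were seen, was at 209 and 195 CPM in the same Cul4a cells and at 0 in all 11 WT libraries. Over whole libraries it was at 267 and 236 CPM in Cul4a, at 9.34 CPM in sorted primary spermatocytes, under that library's floor, and at most 1.71 CPM in all others. Counts of Rps13 and of this copy therefore need not be separable. Rps3a3, another processed copy, rose in Cul4a pachytene-like cells through 1 library: it was at 116 CPM in Cul4a_2 and 2.87 CPM in Cul4a_1. All ribosomal protein pseudogenes marked -ps took 0.0714% and 0.062% of UMIs in Cul4a. They took 0.0101% to 0.0161% in the 8 HiSeq, mechanically dissociated WT libraries, and 0.0571%, 0.0787% and 0.0224% in WT1, WT2 and WT3. Their share was 0.0247% to 0.0521% in Mlh3, 0.152% in sorted spermatogonia, and 0.0108% and 0.0132% in CNP.

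Of the other lists, 19 of 75 mitochondrial ribosomal protein genes rose and 0 fell in Cul4a pachytene-like cells. In the same cells 9 of 39 ribosome biogenesis genes rose and 3 fell, and 5 of 39 translation factor genes rose and 1 fell. Over all genes tested there, 7.48% rose and 4.98% fell. Of 88 members tested in all 3 classes, 30 rose in each (34.1%, where 1.57% of all genes did) and 1 fell in each (0.37% of all genes did). Of 89 tested in some class, 64 were called in at least 1 (71.9%, where 20.1% of all genes were) and 25 in none. All of these comparisons share the WT libraries with those of CNP.

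Mlh3 was compared with WT in pachytene-like cells and in no other class. Their largest cluster was the same (41.4% of WT and 37.6% of Mlh3 cells), but the second largest differed (35.8% of WT and 30.9% of Mlh3 cells). In these cells 7 of 89 members rose and 1 fell (8.99%, where 17.6% of all genes were called, 8.44% higher and 9.19% lower, by edgeR's quasi-likelihood test and Benjamini-Hochberg adjustment at 0.05), and the median was 0.13 against 0.15 over all genes. The count rests on the libraries used: with HiSeq, mechanically dissociated libraries only, 43 of 89 rose and 2 fell (50.6%, where 17.5% of all genes were called, 8.11% higher and 9.41% lower), with a median of 0.39 against 0.15. The share of UMIs was 1.62% to 3.32% (median 2.9%, n = 6) in Mlh3. Mitochondrial transcripts took 0.935% to 5.52% of UMIs in the Mlh3 pachytene-like cells and 0.368% to 0.816% in those of WT, with no overlap. The part of this difference in the counts was not tested. The largest fitted differences among the members were in X-linked genes. Rpl10 was at 21.9, 7.15, 53, 4.01, 3.77 and 3.65 CPM in Mlh3_1 to Mlh3_6 and at 0 UMIs in 9 of 10 WT libraries, with WT11 at 1.76 CPM. It rose by 4.51 ± 0.93 (adjusted p = 0.000168). Rps4x rose by 4.01 ± 0.94 (adjusted p = 0.00109) and Rpl36a by 3.56 ± 0.94 (adjusted p = 0.00398). Since these WT libraries are mostly at 0, the fitted sizes depend on the prior count.

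Leydig markers, from cells rich in Rpl10 and Rps4x, moved with these X-linked members. In the pachytene-like cells of Mlh3_1 to Mlh3_6 they summed to 1148, 415, 1865, 104, 73.5 and 104 CPM, and in WT to 0 to 38.3 CPM. Their part in the X-linked counts was not tested. Among autosomal members, Rpl22 rose by 0.70 ± 0.17 (edgeR's quasi-likelihood test, adjusted p = 0.00202) and Rps21 by 0.63 ± 0.17 (adjusted p = 0.00619), and Rps4l fell by 0.63 ± 0.16 (adjusted p = 0.00304). In the same cells 8 of 39 ribosome biogenesis genes rose and 0 fell, 3 of 39 translation factor genes rose and 3 fell, and 0 of 75 mitochondrial ribosomal protein genes rose and 3 fell (4%, under the 9.19% of all genes that fell). Over all genes 8.44% rose there.

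The sequencing platform was compared with strain and dissociation as terms. Over whole libraries 7 of 91 members were higher on the MiSeq and 0 lower (7.69%, where 0.248% of all genes were called, 0.192% higher and 0.0556% lower), with a median of 0.66 against -0.08 over all genes. Among the 7 were Rpsa, Rpl19, Rpl21, Rps16, Rpl5 and Rps19. Rpsa, a small-subunit protein related to the laminin receptor, was at 294 and 292 CPM in WT1 and WT3 and between 73.4 and 115 CPM in the 8 WT libraries with HiSeq sequencing and mechanical dissociation, with WT2 at 15.2 CPM. In Mlh3 it was at 732 and 262 CPM on the MiSeq and at 243, 223, 255 and 201 CPM on the HiSeq. It was higher on the MiSeq by 1.66 ± 0.28 on the log2 scale (edgeR's quasi-likelihood test, adjusted p = 0.00228). The WT groups did not overlap, and in Mlh3 the gap was large for Mlh3_1 only. With all libraries 55 of the 91 members had an unadjusted p under 0.05. Without WT3, 16 had one and 0 passed edgeR's test after adjustment. Without WT1, Mlh3_2 and Mlh3_3 in turn, 4, 34 and 22 were called.

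Platform terms fitted within the strains gave 38 of 91 members in WT, all higher on the MiSeq (41.8%, where 0.44% of all genes were called, 0.406% higher and 0.0342% lower). They gave 0 in Mlh3, where 0.0684% of all genes were called (0.0299% higher and 0.0385% lower) and 11 members had an unadjusted p under 0.05 by edgeR. These terms were added after seeing the data. The difference of the terms was called for 10 members (11%, where 0.0599% of all genes were called), all larger in WT. Rpl21 differed by 2.55 ± 0.40 (edgeR's quasi-likelihood test, adjusted p = 0.00507), Rps13 by 2.36 ± 0.39 (adjusted p = 0.00836) and Rpl36 by 3.25 ± 0.54 (adjusted p = 0.00858). The HiSeq side of the WT term includes WT2, which was dissociated with enzymes and low in many members. WT2 stood at 16.5%, 20.9% and 12.8% of the level of the 8 comparable WT libraries for Rpl21, Rps13 and Rpl36. The part of WT2 in these calls was not tested. The genes listed by the study for a platform component include Rps7, Rpl11, Rps13, Rps12 and Rps23, and as it chose them on these samples they are no independent evidence. Of these, Rps12, Rps13 and Rps23 were among the 10. Rps13 was at 803 CPM in WT3 and 202 to 338 CPM in the 8 comparable WT libraries, but at 558 and 373 CPM in the MiSeq and 351 to 559 CPM in the HiSeq libraries of Mlh3.

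In elongating spermatid-like cells, where the MiSeq libraries were WT1 and WT3 alone, 42 of 89 members were higher on the MiSeq and 0 lower (47.2%, where 0.773% of all genes were called, 0.602% higher and 0.171% lower; median 1.07 against -0.21). Rpl36 was at 740 and 804 CPM in WT1 and WT3, between 76.9 and 228 CPM in WT4 to WT11 and at 22.8 CPM in WT2, and was higher by 2.66 ± 0.24 (edgeR's quasi-likelihood test, adjusted p = 4.06e-25). Rpl21 was at 493 and 675 CPM, against 139 to 195 CPM in WT4 to WT11 and 34.2 CPM in WT2, and was higher by 2.28 ± 0.24 (adjusted p = 8.05e-18). For both genes the platforms did not overlap. Without WT3, 14 members were called. No filter on low counts gave 8, clustering with the ribosomal protein genes kept gave 15 and the replicate block gave 2. Fau was also higher on the MiSeq (2.03), as was 1 of 39 translation factor genes, Eif1 (0.86).

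**Figure D4:**
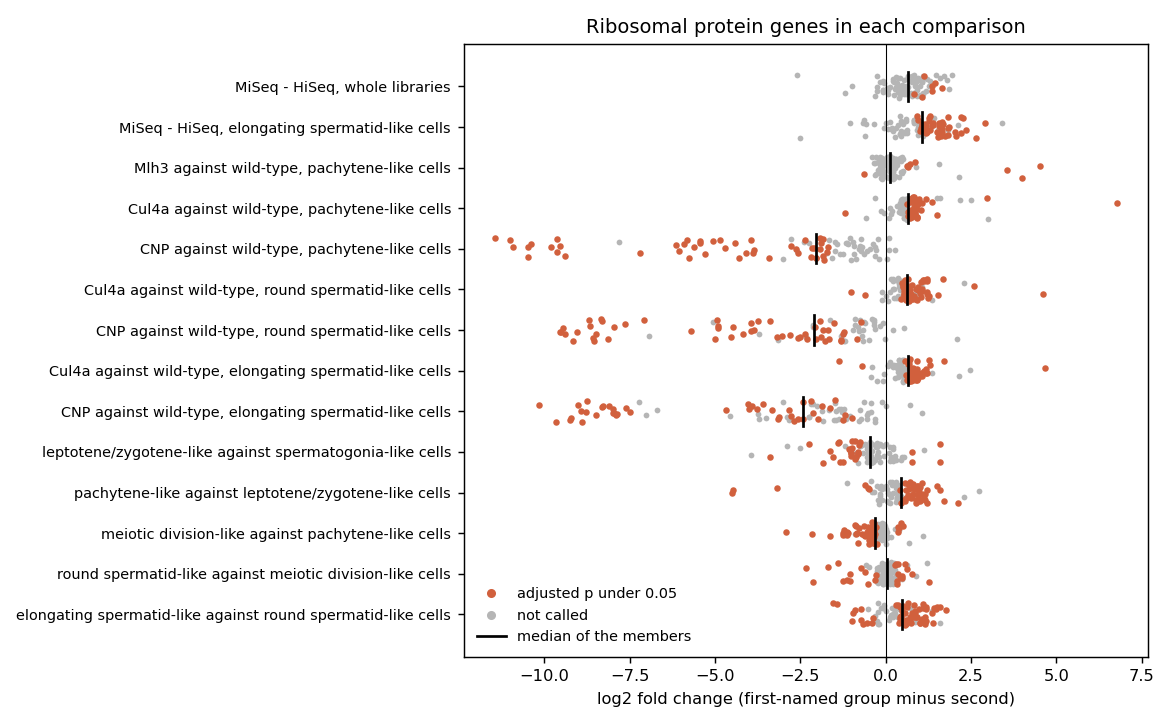
Log2 differences of the ribosomal protein genes (x axis, 1 point per member tested) in 14 comparisons (y axis), orange where the adjusted p of edgeR's quasi-likelihood test was under 0.05, with a bar at each median. Calls lie below 0 in CNP (medians of fitted values -2.05, -2.09 and -2.41) and mostly above 0 in Cul4a (0.65, 0.63 and 0.66), where Rpl34 and Rps13 were called below 0, and fitted values of members at 0 UMIs depend on the prior count.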

How the data were processed

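UMI counts were deposited by the authors, 1 table per library, as whole-number counts per gene and barcode without normalization. They processed reads with the Drop-seq pipeline, bcl2fastq and STAR 2.5.3a on mm10. Here UMIs were summed per library or per library and class. CPM are UMIs scaled to a common total of the library or class. Library totals were 107117 to 9745302 UMIs, and 0 columns belonged to other samples.

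Barcodes (48642) were kept with at least 200 UMIs and 50 genes, and with UMIs and genes no more than 1 SD below the library mean. Scaled mt-Rnr2 had to be at most 2, which left 36618. These limits follow the study. Its removal of a further group, with low UMI totals, high mitochondrial expression and often mixed early and late meiotic genes, was not applied. Doublets were not called. Counts were divided by cell totals, square-rooted, scaled and capped at 10, and clustered (40 principal components, 20 neighbours, Leiden resolution 2) without ribosomal protein genes, their pseudogenes and fusion genes such as Fau. Some genes that the naming rule selects are not reported here. Clusters of at least 20 cells were named "-like" after a class with at least 3 markers at 2-fold, with limits set after clusters had been seen. The members, gene lists and markers were chosen with earlier results of these data known.

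Summed counts went into the quasi-likelihood test of edgeR (TMM, genes with at least 5 counts, classes with at least 10 cells, Benjamini-Hochberg threshold 0.05). Strain comparisons had strain, dissociation and platform as terms, with all strains in 1 fit. Stage comparisons had the library as block. Platform came from the study's list of samples and groups from the labels. Replicate numbers do not pair the libraries: 3 of 16 same-number pairs had correlations over 0.1 (-0.22 to 0.23). Alternatives were DESeq2, RLE and library-total scaling, no filter, other cell filters and clusterings, terms left out, a replicate block and single libraries left out. The procedure was tested on simulated counts.

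Named genes were the paralog pairs, the members of a platform component of the study, Rpl10a, the stalk genes, and for each comparison the 5 members with the smallest adjusted p in each direction. Coordinates and coding sequences came from GENCODE vM21 and promoters from RefSeq (GRCm38.p6). Tools were Python 3.11.15, NumPy 2.4.6, pandas 2.3.3, SciPy 1.17.1, Scanpy 1.11.5, matplotlib 3.10.9, R 4.3.3, edgeR 4.0.16, DESeq2 1.42.0 and limma 3.58.1.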

Additional observations from a re-analysis of the deposited data

Results flagged for a closer look

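Within WT, WT3 stood apart from the other libraries in the members' share of UMIs, at 7.49% in leptotene/zygotene-like cells (highest of 5) and 4.56% in pachytene-like cells (highest of 10). WT3 was the only MiSeq library of WT in both classes. Within Mlh3, Mlh3_1 stood apart from the other 5 whole libraries in Rpl10 (349 CPM), Rps4x (376 CPM), Rpl3 (697 CPM), Rpl7 (732 CPM), Rpl10a (198 CPM) and Rplp0 (2083 CPM). Its Leydig-like cells numbered 386, against 13 to 93 in the other Mlh3 libraries, and its Leydig markers summed to 9180 CPM, against 8105 CPM in Mlh3_3 and 1336 to 3200 CPM in the other 4. Their part in these values was not tested. In all, 34 groups were examined and 8 had such a library, where chance gives about 1 in 20 groups. These groups are not independent, since 6 of the 8 are genes of the same library, Mlh3_1, and 2 are the share in WT3. The difference between MiSeq and HiSeq libraries was larger in WT than in Mlh3 for 10 members by an interaction term in edgeR's quasi-likelihood test. WT2, low in many members, is on the HiSeq side of WT, and its part was not tested.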

How the results depend on the processing

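The number of members called moved with these alternatives, given beside the number reported. For the platform in whole libraries (7 members), DESeq2 gave 26, RLE scaling 22, library totals 20, no filter 3, filtered cells 24, the replicate block 29 and libraries left out 0 to 34, with 38 for the WT term and 0 for the Mlh3 term. In elongating spermatid-like cells (42), no filter gave 8, the filter on UMIs and genes only 24, ribosomal protein genes kept in clustering 15, the replicate block 2 and libraries left out 14 to 45. For Mlh3 (8), library totals gave 13, no filter 15 and HiSeq mechanical libraries only 45.

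For Cul4a in pachytene-like cells (38), Leiden resolution 1 gave 17, ribosomal protein genes kept 19, the replicate block 21, no platform term 23, HiSeq mechanical libraries only 75 and libraries left out 4 to 8. In round spermatid-like cells (58), DESeq2 gave 31, the block 6, no platform term 37 and libraries left out 30 to 37. In elongating spermatid-like cells (46), DESeq2 gave 22, library totals 16, no filter 21, ribosomal protein genes kept 19, the block 0 (3 at an unadjusted p under 0.05 by edgeR), no platform term 27 and libraries left out 15 to 18. For CNP in pachytene-like cells (48), the replicate block gave 1 and libraries left out 27 to 29. In round spermatid-like cells (52), DESeq2 gave 29 and libraries left out 28 to 33. In elongating spermatid-like cells (44), DESeq2 gave 14, library totals 29, no filter 6, the filter on UMIs and genes only 16, ribosomal protein genes kept 5, the block 14 and libraries left out 9 to 18. Replicate numbers do not pair these libraries. With a Cul4a or CNP library left out, 1 library of that strain remained, and the spread came from the other groups. Causes of these shifts were not tested.

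Between stages, spermatogonia to leptotene/zygotene-like cells (28) gave 64 with RLE, 50 with library totals, 59 with DESeq2, 9 with no library block, 45 at Leiden resolution 1, 50 with ribosomal protein genes kept and 23 to 47 with libraries left out. The step to pachytene-like cells (49) gave 16 with no library block and 32 in WT libraries only. The divisions (51) gave 77 with library totals and 23 with no library block. Round spermatids (26) gave 55 with RLE, 63 with totals, 56 with DESeq2, 10 with no library block and 53 at Leiden resolution 1. Elongating spermatids (61) gave 30 with no library block.

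Of 1900 log2 differences of single genes under alternatives (177 gene results), 1456 kept direction and side of the threshold, 413 kept direction only, and 31 turned sign. For the platform, Rpl21 was at -0.05 with the Mlh3 term. In elongating spermatid-like cells the replicate block gave -2.40 for Rpl10 and -0.06 for Rplp1, and leaving out WT3 gave 0.00 for Rpl10, against 2.92 without WT1. In strain comparisons the block gave 1.44 for Rpl34 (Cul4a, pachytene-like), 0.29 for Rplp2 (CNP, pachytene-like) and -0.04 for Rpl22 (Cul4a, round spermatid-like), and Leiden resolution 1 gave -0.03 for Rpl10l (Cul4a, round spermatid-like), -0.22 for Rpl35 (divisions) and 0.02 for Rpl3 (round spermatid step). At the pachytene step RLE and DESeq2 gave -0.58 and -0.58 for Rps4l, -0.37 and -0.38 for Rps7, -0.20 and -0.21 for Rpl11, -0.22 and -0.18 for Rplp0, -0.04 and -0.04 for Rpl8, and -0.07 and -0.08 for Rpl13, and library totals gave -0.36 for Rps4l, -0.16 for Rps7 and -0.00 for Rplp0. Library totals gave -0.13 for Rplp2 and -0.02 for Rps9 at the round spermatid step, and -0.06 for Rps7 and -0.11 for Rplp2 at the elongating step, where RLE and DESeq2 both gave 0.18 for Rpl39l. Below the floor of 3 UMIs, 0.308 to 28 CPM over whole libraries, differences were not detectable.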
